A study of Mus musculus with 12 samples.

Results

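A set of 8 islet genes was low on the first day after diphtheria toxin and at or near its control level again at the later times. They were found by a rule applied to the deposited counts of 48709 genes. A gene was taken if its mean level in the control libraries was at least 5 CPM (the count scaled to the total of its library). Its highest library on the first day also had to be at most 0.6 times the lowest of the 9 other libraries. Of the 11564 genes with that control level, 8 met the rule: Sdf2l1, Pdia6, Manf, Yipf2, Slc39a8, Emilin1, Marco and Clca1. The genes were chosen by the CPM of the first day against all other libraries, so these values are given as a description with no test. The description "lowered only on day 1" fits 6 of the 8. Marco and Clca1 met the rule because they had no count on the first day and few or none in some other libraries, and they are treated apart.

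RNA was sequenced from pancreatic islets of female mice on the immunodeficient NSG background. Every group, controls included, was heterozygous for RIP-DTR, a transgene in which the rat insulin promoter drives the diphtheria toxin receptor, so that beta cells take up the toxin. The control group (CTRL) received no treatment. The other groups received diphtheria toxin and were labelled 1, 3 and 5 DPA, read here as days post-ablation, and the design text describes the ablation as partial. Each of the 4 groups had 3 libraries, with total counts of 29867083 to 50012558. Islets held beta cell markers in every library, at 11.2% to 20.9% of counts. The labels give neither the animals behind a library nor whether islets were pooled, and the p-values speak of the spread among these libraries only.

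Of the genes, 3 belong to protein folding in the endoplasmic reticulum (ER). Secretory cells such as beta cells thread proinsulin into this compartment, where chaperones and disulfide isomerases fold it before it passes through the Golgi. When unfolded protein builds up, the sensors ATF6, IRE1 and PERK start the unfolded protein response, which raises the transcription of the chaperone genes. Many of those genes carry in their promoters an ER stress element, a CCAAT box that binds NF-Y followed at a fixed distance by CCACG, which binds ATF6. Sdf2l1 encodes a partner of the ER chaperone BiP and its co-chaperone DNAJB11. Pdia6 encodes a protein disulfide isomerase, and Manf a secreted ER protein that was described in beta cells as a survival and proliferation factor in mice.

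The promoters of Pdia6, Sdf2l1 and Yipf2 are shown because they differ in these boxes. Each runs from 250 bases before to 50 bases after the RefSeq transcription start (GRCm38.p6), 5′ to 3′ on the gene's strand. They are chr12:17266339-17266638 (plus strand), chr16:17132334-17132633 (minus strand) and chr9:21592782-21593081 (minus strand). Capitals mark CCAAT and CCACG, or their complements ATTGG and CGTGG.
Pdia6: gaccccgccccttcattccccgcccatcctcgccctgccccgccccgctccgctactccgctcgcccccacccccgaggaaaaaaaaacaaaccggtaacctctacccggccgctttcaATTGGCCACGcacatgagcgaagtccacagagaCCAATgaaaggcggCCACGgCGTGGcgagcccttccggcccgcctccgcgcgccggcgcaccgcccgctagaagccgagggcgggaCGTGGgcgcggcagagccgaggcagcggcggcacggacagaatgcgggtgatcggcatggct
Sdf2l1: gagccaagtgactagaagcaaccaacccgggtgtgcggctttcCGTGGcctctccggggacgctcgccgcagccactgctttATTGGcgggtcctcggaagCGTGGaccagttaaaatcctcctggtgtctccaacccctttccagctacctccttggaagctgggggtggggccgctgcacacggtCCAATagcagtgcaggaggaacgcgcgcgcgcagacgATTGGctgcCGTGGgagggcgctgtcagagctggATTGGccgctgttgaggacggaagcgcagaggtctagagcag
Yipf2: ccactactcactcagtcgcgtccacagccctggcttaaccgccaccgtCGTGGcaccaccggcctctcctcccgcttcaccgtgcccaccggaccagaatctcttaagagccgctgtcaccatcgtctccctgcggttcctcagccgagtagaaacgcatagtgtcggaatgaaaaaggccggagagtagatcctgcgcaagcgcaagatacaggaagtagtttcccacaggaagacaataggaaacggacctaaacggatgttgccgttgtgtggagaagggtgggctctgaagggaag
Pdia6 held the whole element, with CCAAT and CCACG 9 bases apart, at positions -98 to -80 from the start. Sdf2l1 held CCAAT boxes and CCACG boxes but not at that distance, and Yipf2 held a single CCACG and no CCAAT. Emilin1, Marco and Slc39a8 also had a promoter in the RefSeq table and lacked the element, while Manf and Clca1 had none in the table. The element was in 0.119% of all 32851 promoters of the table, searched on both strands. CCAAT alone was in 37.4% of them and CCACG alone in 32.8%. A match is a description of these letters and not of bound factors.

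The 3 ER folding genes stood at 35.8% to 47.0% of their CTRL means at 1 DPA. Sdf2l1 (chr16:17130138-17132383 in mm10, minus strand) had 130.1, 122.8 and 99.0 CPM in CTRL, 42.7, 47.8 and 35.6 CPM at 1 DPA, 99.7, 109.0 and 114.0 CPM at 3 DPA, and 137.7, 133.1 and 135.8 CPM at 5 DPA. The highest 1 DPA library was thus at 0.482 of the lowest library of any other group, the lowest such ratio among the genes that had counts at 1 DPA. The 1 DPA mean was 35.8% of the CTRL mean (log2 fold change -1.51 in edgeR). Pdia6 (chr12:17266545-17284770, plus strand) had 482.7, 467.2 and 420.3 CPM in CTRL, 209.8, 237.3 and 186.6 CPM at 1 DPA, 404.5, 440.6 and 444.4 CPM at 3 DPA, and 508.1, 488.1 and 501.8 CPM at 5 DPA. All 3 libraries of 1 DPA were near the same low level, 46.2% of CTRL on average, and the 5 DPA libraries were all above CTRL by a small margin. Manf (chr9:106838312-106891979, minus strand) stood at 47.0% of its CTRL mean at 1 DPA, with 91.9, 113.1 and 93.6 CPM against 223.3, 219.3 and 192.7 CPM in CTRL. At 3 DPA it had 209.0, 197.3 and 197.1 CPM, and at 5 DPA 229.4, 219.7 and 224.2 CPM, so that 3 DPA lay within the CTRL range and 5 DPA overlapped it. In bulk RNA, fewer beta cells and less RNA of these genes per cell cannot be told apart.

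Yipf2 (chr9:21588682-21592828, minus strand) encodes a membrane protein of the Golgi. Its levels were 93.7, 86.3 and 83.4 CPM in CTRL, 41.8, 43.0 and 35.8 CPM at 1 DPA, 77.8, 80.6 and 77.0 CPM at 3 DPA, and 88.8, 88.8 and 82.5 CPM at 5 DPA. The 1 DPA mean was 45.8% of CTRL (log2 fold change -1.15). The 3 DPA libraries were still just below all CTRL libraries, and the 5 DPA libraries overlapped with CTRL. Yipf2 overlaps Carm1 and Timm29 (listed under an older symbol) on the other strand, and Manf overlaps Rbm15b on its own strand and Dcaf1 (also under an older symbol) on the other. Whether counting used strand is not given in the sources used here. The overlapped genes averaged 56.2 CPM (Carm1), 81.0 CPM (Timm29), 94.9 CPM (Rbm15b) and 73.6 CPM (Dcaf1) at 1 DPA, against 63.2, 65.5, 78.4 and 51.1 CPM in CTRL. None of these 4 was as low at 1 DPA as 50% of its CTRL mean. The end of Pdia6 overlaps Atp6v1c2 on the other strand, which averaged 1.04 CPM at 1 DPA and 0.0418 CPM in CTRL.

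Slc39a8 (chr3:135825279-135888572, plus strand) encodes ZIP8, a carrier that brings zinc and manganese into cells, and was the lowest expressed of the 6. It had 18.7, 13.9 and 18.5 CPM in CTRL, 7.16, 7.51 and 5.73 CPM at 1 DPA, 19.2, 24.7 and 23.9 CPM at 3 DPA, and 16.8, 23.3 and 18.0 CPM at 5 DPA. The 1 DPA mean was 39.9% of CTRL (log2 fold change -1.34). At 3 DPA every library was above every CTRL library.

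Emilin1 (chr5:30913402-30921277, plus strand) encodes an elastin-associated glycoprotein of the extracellular matrix. Its levels were 133.3, 113.3 and 91.1 CPM in CTRL, 43.0, 51.7 and 46.3 CPM at 1 DPA, 101.2, 90.6 and 95.0 CPM at 3 DPA, and 163.4, 127.5 and 128.2 CPM at 5 DPA. The 1 DPA mean was 41.8% of CTRL (log2 fold change -1.29). It varied most among the 6 outside 1 DPA: the 9 other libraries spanned 1.80-fold, against 1.19-fold for Manf and 1.77-fold for Slc39a8.

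**Figure D1:**
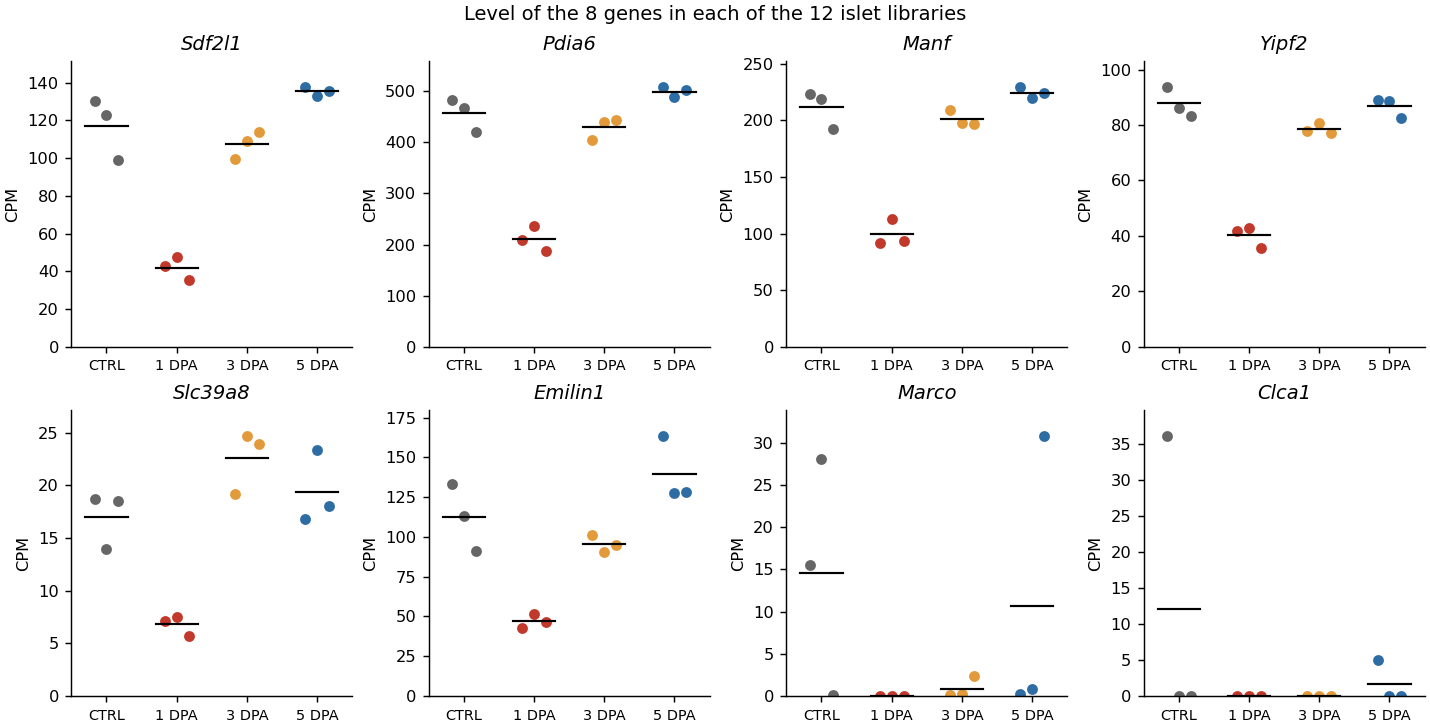
CPM (y axis, linear from 0) of each gene in the 12 libraries, grouped as CTRL, 1, 3 and 5 DPA (x axis). Points are libraries in replicate order and lines are group means. In the first 6 panels the 1 DPA libraries lie well below all others, from 0.482 (Sdf2l1) to 0.587 (Pdia6 and Manf) of the lowest other library at their highest. Marco and Clca1 are at 0 in all 3 libraries of 1 DPA and also at or near 0 in libraries of the other groups.

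Levels differed widely between the genes. Per length, in the authors' TPM values (transcripts scaled to length and library), Pdia6 and Sdf2l1 led at 1 DPA with 143.1 ± 14.4 and 96.0 ± 11.1 TPM, against 271.5 ± 15.8 and 235.5 ± 29.4 TPM in CTRL (SD, n = 3 each). Manf followed with 71.9 ± 9.31 TPM at 1 DPA and 133.7 ± 8.45 TPM in CTRL, then Yipf2 with 47.4 ± 2.68 and 90.9 ± 5.50 TPM, and Emilin1 with 24.3 ± 3.03 and 50.7 ± 9.12 TPM. Slc39a8 was last of the 6, with 2.25 ± 0.216 TPM at 1 DPA and 4.97 ± 0.886 TPM in CTRL. This order of the 6 held in all 4 groups. Pdia6 and Sdf2l1 overlapped in CTRL and at 5 DPA, and the other neighbours among the 6 did not overlap in any group.

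In CTRL and at 1 DPA the same library was highest for all 6 genes, while at 3 DPA each replicate was highest for 2 of 6. The lowest 1 DPA library was replicate 3 for 4 genes and replicate 1 for 2. The share of all genes with such an order was not taken. Replicate 2 was the highest 1 DPA library for 6 of the 6 genes, and replicate 1 was the highest CTRL library for 6 of 6. Replicate 3 was the lowest CTRL library for 5 of 6. Single libraries set how many genes met the rule. Without CTRL replicate 3 it took 140 genes, among them 5 of 14 macrophage markers and 3 of 13 stromal and pericyte markers, without 1 DPA replicate 2 it took 34 genes, and without 1 DPA replicate 3 it took 15. The 8 genes were among those in each of these cases, which says little, since leaving out a library cannot raise a gene's ratio. Only the control level can then drop a gene, and without CTRL replicate 1 the rule took 7 of the 8.

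Marco and Clca1 had most of their counts in a few libraries. Marco (chr1:120474538-120505024, minus strand), a scavenger receptor of macrophages, had 600, 1259 and 5 counts in CTRL, 0, 0 and 0 counts at 1 DPA, 3, 8 and 113 counts at 3 DPA, and 12, 43 and 1089 counts at 5 DPA. Its pooled level at 1 DPA was at least 515-fold lower than in CTRL, taking 3 counts over the group as the floor. The groups other than 1 DPA overlapped with each other at the low end: CTRL replicate 3, replicates 1 and 2 of 3 DPA and replicate 1 of 5 DPA had 3 to 12 counts. Clca1 (chr3:145003817-145032776, minus strand), a secreted protein known from mucus-producing cells, had 1396 counts in CTRL replicate 1 and 249 counts in 5 DPA replicate 1. It had 0 counts in the other libraries of every group, so its pooled level at 1 DPA was at least 386-fold lower than in CTRL by the same floor, while its lowest other library was also at 0. It met the rule as 0 against 0.

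Markers of macrophages shared the low level of 1 DPA with Marco but not its pattern over the other libraries. The 14 macrophage markers summed to 0.0109% to 0.0144% of counts at 1 DPA, against 0.0622%, 0.0381% and 0.0148% in CTRL. Of the 14 markers, edgeR called 12 lower at 1 DPA (9 to 14 with single libraries left out), beside 22.4% of all genes. They reached 0.0241% to 0.0421% at 3 DPA and 0.0697% to 0.0988% at 5 DPA, and none of the 14 was at 0 in a whole group. At 0.0421% in 3 DPA replicate 1 and 0.0766% and 0.0697% in 5 DPA replicates 1 and 2, the sum was above that of CTRL replicate 2, which had more Marco counts than any of them. Of the 6 lymphocyte markers, 5 were at 0 in all libraries of 1 DPA, and the other was Cd4. These markers were near the floor elsewhere too: in CTRL only 1 of the 6 had a mean of at least 1 CPM, and only 2 could be tested. In CTRL replicate 3 they summed to 1.97e-05% of counts, below every 1 DPA library (2.36e-05% to 5.39e-05%). The 4 libraries with over 100 Marco counts were also the 4 with the most counts of Cd4, a receptor of helper T cells that some mouse myeloid cells also carry. Cd4 had 1034, 800 and 9 counts in CTRL, 21, 9 and 11 counts at 1 DPA, 88, 31 and 826 counts at 3 DPA, and 272, 518 and 1565 counts at 5 DPA. Cd3e, a T cell receptor subunit, had 0 counts in all 12 libraries. Marco and Cd4 were set side by side after their values were seen. The part of these cells in the values of Marco was not tested.

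At the later times no gene of the set passed the test against CTRL. The rule itself favours genes with little spread among the 9 other libraries. The 7 genes with enough counts (all but Clca1) were tested with edgeR's quasi-likelihood model over 17294 genes, where a Benjamini-Hochberg adjusted p under 0.05 made a call. Both comparisons share the CTRL libraries. At 3 DPA against CTRL 0 of 7 were called by edgeR, beside 10.2% of all genes called higher and 2.37% called lower. DESeq2 also called 0, and 2 had an unadjusted p under 0.05 in edgeR and 3 in DESeq2. At 5 DPA against CTRL 0 of 7 were called by edgeR and by DESeq2, beside 5.87% higher and 2.67% lower over all genes, and 0 had an unadjusted p under 0.05 in either. A p that misses the threshold does not show that levels were equal.

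The intervals say roughly how close the later levels were. They rest on a normal approximation and are narrower than edgeR's test would give. At 3 DPA Pdia6 was between 79.0% and 105% of CTRL (95% interval; edgeR log2 fold change -0.13 ± 0.10 SE, adjusted p = 0.486). Manf was between 81.4% and 103% (-0.12 ± 0.09, edgeR adjusted p = 0.442), and Sdf2l1 between 74.1% and 106% (-0.17 ± 0.13, edgeR adjusted p = 0.481). Yipf2 was lowest relative to its error at 3 DPA, between 76.3% and 98.0% of CTRL (-0.21 ± 0.09, edgeR adjusted p = 0.182), and without 1 DPA replicate 3 it passed the threshold (edgeR adjusted p = 0.0268). Emilin1 was between 69.1% and 97.6% (-0.28 ± 0.13, edgeR adjusted p = 0.189), and without CTRL replicate 3 it passed (-0.43, edgeR adjusted p = 0.0147). Slc39a8 was on the other side, between 101% and 164% of CTRL (0.37 ± 0.18, edgeR adjusted p = 0.225). Of the 7 genes, every 3 DPA library was above every CTRL library for 1 (Slc39a8), beside 20.1% of all genes, and below for 1 (Yipf2), beside 7.07%.

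At 5 DPA the intervals of 6 genes all held 100% of CTRL. Pdia6 was between 89.0% and 118%, Manf between 88.3% and 112%, Sdf2l1 between 90.7% and 130%, and Yipf2 between 82.0% and 105%. Slc39a8 was between 84.8% and 137% and Emilin1 between 98.1% and 138%. Every 5 DPA library was above every CTRL library for Sdf2l1 and Pdia6, 2 of the 7 genes tested, beside 22.7% of all genes. It was below every CTRL library for 0 of 7, beside 5.13%. Marco could not be placed: its interval at 5 DPA ran from 4.32% to 1050% of CTRL (edgeR log2 fold change -0.57 ± 2.02, adjusted p = 0.897).

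Between the later times most values were higher at 5 DPA. Against 3 DPA, every 5 DPA library was higher for 5 of the 7 genes (Sdf2l1, Yipf2, Emilin1, Pdia6 and Manf), beside 15% of all genes, and lower for 0, beside 12.1%. By adjusted p edgeR called 0 of 7, beside 0.705% of all genes called higher and 2.46% called lower, while 2 had an unadjusted p under 0.05 in edgeR and in DESeq2, and DESeq2 called 1. That gene was Emilin1, which averaged 139.7 ± 20.5 CPM at 5 DPA and 95.6 ± 5.35 CPM at 3 DPA (SD, n = 3 each; edgeR log2 fold change 0.50 ± 0.13 SE, adjusted p = 0.0577). Its DESeq2 adjusted p was 0.0039. With the replicate number as a block over all 4 groups, a pairing that the labels do not give and the data do not establish, its edgeR adjusted p was 0.0491. Without CTRL replicate 1 or CTRL replicate 3 edgeR called it too (adjusted p = 0.0402 and 0.0131). Sdf2l1 averaged 135.5 ± 2.32 CPM at 5 DPA and 107.5 ± 7.27 CPM at 3 DPA (0.29 ± 0.13, edgeR adjusted p = 0.285).

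**Figure D2:**
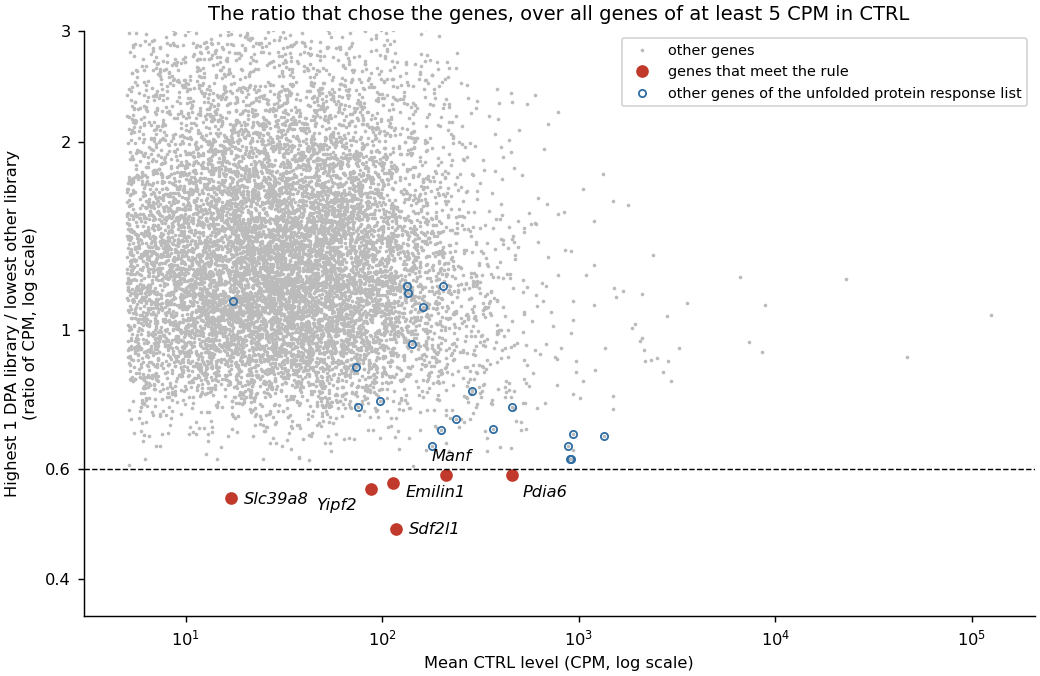
The ratio that chose the genes (y axis, log scale: highest 1 DPA library over lowest other library, in CPM) against the mean CTRL level (x axis, CPM, log scale) for genes of at least 5 CPM in CTRL. Red points meet the limit of 0.6 (dashed), blue circles are other genes of the folding list and grey points all others; ratios above 3, and Marco and Clca1 with no ratio above 0, are outside the axis. The 6 red points lie between 0.482 and 0.587, and several blue circles lie just above the line.

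The limit divided a graded series. Just inside it were Manf and Pdia6 at 0.587 and Emilin1 at 0.571. Just outside were Hapln4, a matrix link protein, at 0.606, Sat2, an acetyltransferase of the polyamine enzyme family, at 0.609, and Ndufa4, a respiratory chain subunit, at 0.620. Hyou1 (an ER chaperone, 0.622) and Pdia3 (a disulfide isomerase, 0.623) followed. Hapln4 had 61.1, 67.7 and 49.2 CPM at 1 DPA, against 145.8, 138.8 and 144.7 CPM in CTRL. It stood at 41.5% of its CTRL mean at 1 DPA, which is lower than for Pdia6 and Manf, and missed the limit because its lowest 3 DPA library had 111.7 CPM. A limit of 0.5 left 3 genes and a limit of 0.7 took 92.

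Other genes of ER folding fell with Sdf2l1, Pdia6 and Manf at 1 DPA. A list of 23 unfolded protein response and ER folding genes held these 3, and of the other 20 edgeR called 17 lower and 0 higher at 1 DPA against CTRL. Over all genes tested 22.4% were called lower and 29.2% higher. The median log2 fold change of the other 20 was -0.83, beside -0.05 over all genes. DESeq2 also called 17 of these 20 lower. The list and its overlap with the genes were known when it was chosen, so the count is a description. Low levels at 1 DPA were not particular to this list. Of 22 interferon response genes edgeR called 13 lower and 4 higher at 1 DPA (median -0.94), and 0 lower at 3 or 5 DPA. Of 26 G1/S and DNA replication genes it called 12 lower and 3 higher at 1 DPA. Of 27 heparan and chondroitin sulfate genes it called 13 lower and 3 higher. The ribosome biogenesis list went the other way, with 22 of 28 higher and 0 lower.

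By role, the chaperones and isomerases named here fell by more than the sensors, a difference that was not itself tested. Hspa5, which encodes BiP, averaged 726 ± 91.9 CPM at 1 DPA and 1341 ± 102 CPM in CTRL (SD, n = 3 each; edgeR log2 fold change -0.92 ± 0.10 SE, adjusted p = 1.73e-05). Hyou1 had 408.5, 490.6 and 397.2 CPM at 1 DPA, against 981.8, 894.5 and 840.8 CPM in CTRL (-1.10 ± 0.10, edgeR adjusted p = 4.27e-06). Pdia3 had 462.9, 536.3 and 506.1 CPM at 1 DPA, against 914.4, 875.6 and 908.4 CPM in CTRL (-0.88 ± 0.06, edgeR adjusted p = 6.72e-07), the smallest p of the list. For both genes every 1 DPA library was far below every CTRL library. Wfs1, a beta cell ER protein mutated in Wolfram syndrome, fell by 0.81 on the log2 scale (edgeR adjusted p = 2.8e-06). Among the sensors, Atf6 fell by 0.33 and Eif2ak3 (PERK) by 0.32 on the log2 scale (edgeR adjusted p = 0.00161 and 0.00899). Ern1 (IRE1) had a log2 fold change of -0.07 ± 0.09 (edgeR adjusted p = 0.556). Of the ER-associated degradation genes, Herpud1 was at 0.05 ± 0.07 and Syvn1 at -0.18 ± 0.11, neither called by edgeR, while Derl3 and Sel1l were called lower. Syvn1 was called lower without CTRL replicate 2 (-0.30, edgeR adjusted p = 0.0395). Besides Pdia3 and Wfs1, the genes of the list named here were chosen after their values were seen.

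**Figure D3:**
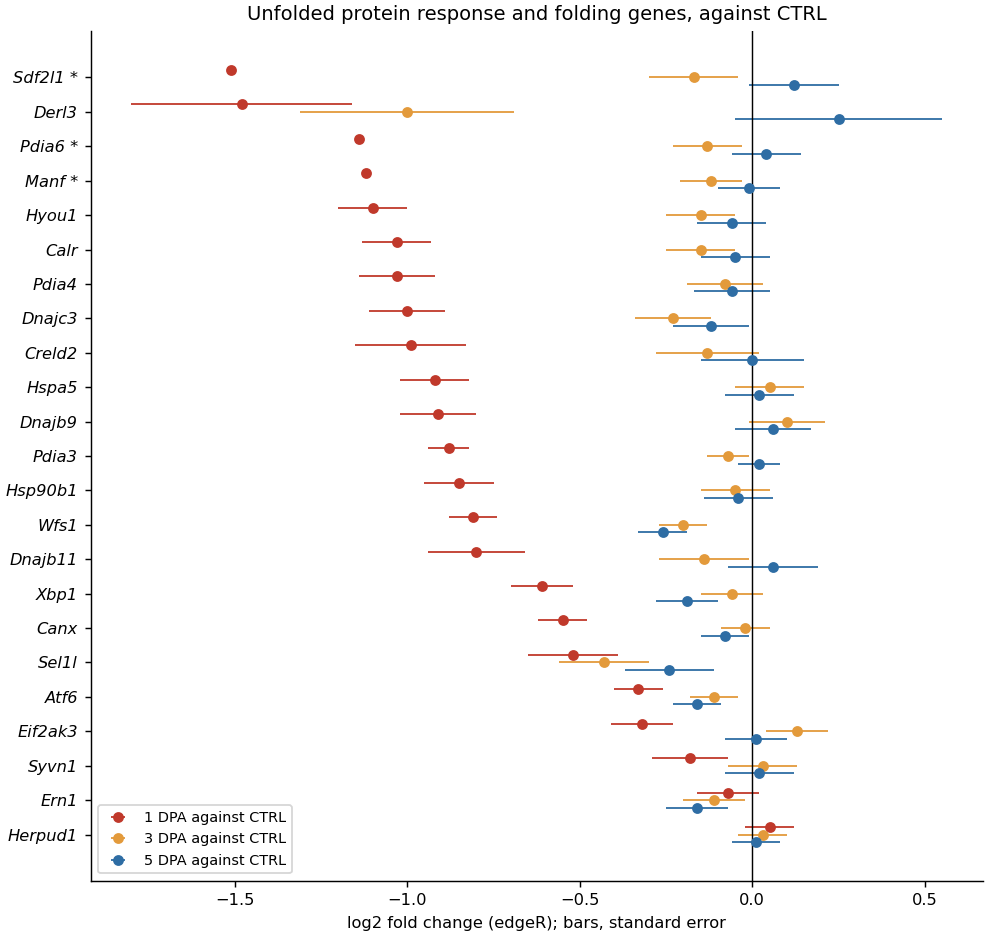
log2 fold change against CTRL (x axis, edgeR) of the 23 genes of the folding list (y axis, sorted by the 1 DPA value) at 1, 3 and 5 DPA. Bars are standard errors; asterisks mark Sdf2l1, Pdia6 and Manf, whose 1 DPA values chose them and carry no bar. The 1 DPA points run from -1.51 (Sdf2l1) to 0.05 (Herpud1), and most points of 3 and 5 DPA lie near 0.

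At the later times few genes of the list passed the test. At 3 DPA edgeR called 1 of 23 lower (Sel1l, log2 fold change -0.43 ± 0.13, adjusted p = 0.0483), beside 2.37% of all genes. At 5 DPA it called 1 of 23 lower (Wfs1, -0.26 ± 0.07, edgeR adjusted p = 0.046), beside 2.67%, with 0 higher at either time. Of the 20 genes outside the set, DESeq2 called 3 lower at 3 DPA, 1 lower at 5 DPA and 0 higher. Over all genes it called 850 and 801 of 23563 lower at those times. Of the 20, 0 had a higher value with an unadjusted p under 0.05 at 1, 3 or 5 DPA by either tool. Leaving out each of the 12 libraries in turn, edgeR no longer called Sel1l in 8 cases (log2 fold change -0.52 to -0.36) and Wfs1 in 9 cases (-0.32 to -0.18). Median log2 fold changes of the 20 genes outside the set were -0.83 at 1 DPA, -0.10 at 3 DPA and -0.04 at 5 DPA, in comparisons that share the CTRL libraries. Of the 20 genes outside the set, 15 had every 1 DPA library below every other library (75.0%, beside 19.8% of genes of at least 5 CPM), and 8 a ratio of at most 0.7 (40.0%, beside 0.796%).

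Genes of the list fell with and without the ER stress element in the promoter window. Of the list, 20 genes had a promoter in the RefSeq table. The element was in 9 of them (Calr, Canx, Creld2, Derl3, Dnajc3, Hsp90b1, Hspa5, Pdia6 and Syvn1), and absent from the other 11. Only exact letters at a distance of 9 bases were searched, so forms with a changed letter or another distance were not counted. Leaving out Pdia6 and Sdf2l1, which the rule chose, edgeR called 7 of 8 lower at 1 DPA with the element and 8 of 10 without it. Of 12 tested genes with the element that were neither on the list nor met the rule, edgeR called 1 lower (Spats2l) and 3 higher (Alg12, Pan2 and Ptgdr2), and their median log2 fold change was 0.05. Among 12585 tested genes with a promoter and no element, 23.0% were called lower.

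Targets of the integrated stress response, the ATF4 branch downstream of PERK and other kinases, were called higher at a share near that of all genes. Of 20 targets, edgeR called 6 higher and 2 lower at 1 DPA, beside 29.2% higher and 22.4% lower of all genes, with a median log2 fold change of -0.02. Of the higher ones, Atf3 (18.5 ± 4.69 CPM at 1 DPA and 4.72 ± 5.62 CPM in CTRL, SD, n = 3 each, edgeR adjusted p = 0.0496) was no longer called when any of 11 of the 12 libraries was left out. The 2 lower ones were Slc7a11 and Aldh1l2, and Slc7a11 was no longer called without CTRL replicate 1 or without any 1 DPA replicate. Ddit3, which encodes the transcription factor CHOP, averaged 50.04 ± 5.43 CPM at 1 DPA and 13.3 ± 0.902 CPM in CTRL (SD, n = 3 each; 1.88 ± 0.13 SE, edgeR adjusted p = 5.97e-07). Atf4 averaged 368.7 ± 42.5 CPM at 1 DPA and 157.3 ± 17.7 CPM in CTRL (1.19 ± 0.10, edgeR adjusted p = 2.41e-06). Both were also called higher at 3 and 5 DPA, with log2 fold changes of 1.41 and 0.74 for Ddit3 and 0.59 and 0.40 for Atf4. The Atf4 call at 5 DPA was lost without CTRL replicate 1 or 3, without any replicate of 5 DPA, and without replicate 3 of 3 DPA (0.31 to 0.51 over all libraries left out). Whether the lists differ from each other was not tested.

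For Yipf2, a list of 32 Golgi glycosylation enzymes gave the neighbouring compartment. edgeR called 18 of 32 lower and 2 higher at 1 DPA, beside 22.4% and 29.2% of all genes (median log2 fold change -0.43). The 2 higher ones, Mgat1 and Mgat4b, were not called without 1 DPA replicate 3 or with totals that leave out the 50 most abundant genes, and Mgat4b not without CTRL replicate 2. At 3 and 5 DPA against CTRL edgeR called 0 of 32 in either direction. DESeq2 called 3 lower at 3 DPA and 2 lower at 5 DPA. The unadjusted p was under 0.05 for 4 at 3 DPA, all of them lower, and for 3 higher and 4 lower at 5 DPA, by either tool. The medians at those times were -0.08 and -0.03. St3gal1, a sialyltransferase, fell by 0.90 on the log2 scale and Mgat2, a branching enzyme of N-glycans, by 0.70 (edgeR adjusted p = 1.51e-05 and 4.33e-05).

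The paralogs of a gene did not always move with it. The families were chosen after the 8 names were known. Over all genes tested, edgeR called 22.4% lower and 29.2% higher at 1 DPA against CTRL. In the protein disulfide isomerase family (PDIA), 4 of the 5 paralogs of Pdia6 were called lower at 1 DPA by edgeR: P4hb, Pdia3, Pdia4 and Pdia5, by 0.81 to 1.03 on the log2 scale. The pancreatic paralog Pdia2 had a log2 fold change of -0.58 ± 0.93. The only paralogs of Sdf2l1 and Manf were near CTRL and were not called under any setting run, though the sign of Cdnf turned with totals that leave out the 50 most abundant genes. Sdf2 averaged 32.5 ± 2.12 CPM at 1 DPA and 32.3 ± 2.70 CPM in CTRL (-0.03 ± 0.07, edgeR adjusted p = 0.783), and Cdnf 1.80 ± 0.223 and 1.67 ± 0.349 CPM (0.09 ± 0.21, edgeR adjusted p = 0.749).

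The counts of the following families also stand beside 22.4% of all genes called lower and 29.2% called higher at 1 DPA. Among YIPF genes, edgeR called 3 of the 5 tested paralogs of Yipf2 lower (Yipf1, Yipf5 and Yipf6, by 0.25, 0.55 and 0.57 on the log2 scale) and 1 higher, Yipf4 (0.41 ± 0.07, adjusted p = 0.000271). Among the zinc carriers of the SLC39 family, 5 of 12 paralogs of Slc39a8 were called lower (Slc39a1, Slc39a6, Slc39a7, Slc39a10 and Slc39a13, by 0.30 to 0.69 on the log2 scale) and 1 higher, Slc39a3. The call of Slc39a3 was lost without CTRL replicate 1 and with totals that leave out the 50 most abundant genes, and that of Yipf1 when CTRL replicate 3, 1 DPA replicate 2 or either of 3 DPA replicates 2 and 3 was left out. Slc39a14, the paralog closest to Slc39a8 in the metals it carries, averaged 32.8 ± 0.564 CPM at 1 DPA and 33.8 ± 1.67 CPM in CTRL (-0.07 ± 0.07, edgeR adjusted p = 0.389), and was called lower only with those totals (-0.20, edgeR adjusted p = 0.0209). In the EMILIN family, Emilin3 went against Emilin1. It had 65, 95 and 165 counts at 1 DPA, against 4, 4 and 1 counts in CTRL (5.39 ± 0.64, edgeR adjusted p = 2.86e-05). The groups did not overlap, and Emilin3 was still called higher at 3 DPA (3.58 ± 0.65, edgeR adjusted p = 0.00277) and at 5 DPA (2.76 ± 0.66, edgeR adjusted p = 0.0264). The call at 5 DPA was lost without CTRL replicate 2 or 3 or 5 DPA replicate 1 (2.28 to 3.06 over all libraries left out). Mmrn2, an endothelial member of that family, fell by 0.49 on the log2 scale (edgeR adjusted p = 0.00774). Emilin2 and Mmrn1 were also called lower, Emilin2 not without replicate 1 of CTRL or replicates 1 or 2 of 1 DPA, and Mmrn1 not without CTRL replicate 1 or 2 or any 1 DPA replicate. Of the 4 class A scavenger receptor paralogs of Marco, 3 were called lower (Msr1, Colec12 and Scara5), and of the 2 tested paralogs of Clca1, 1 (Clca3a1). Colec12 and Scara5 lost the call without CTRL replicate 1 or CTRL replicate 2. Colec12 also lost it without replicates 1 or 2 of 1 DPA, Scara5 without replicates 1 or 3, and Clca3a1 without any of the 3. The class A scavenger receptor Msr1 had 15, 10 and 13 counts at 1 DPA, against 220, 249 and 8 counts in CTRL (-3.44 ± 1.00, edgeR adjusted p = 0.0161). As for Marco, CTRL replicate 3 was at the low end with the 1 DPA libraries, and without 1 DPA replicate 2 the edgeR adjusted p was 0.0581.

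**Figure D4:**
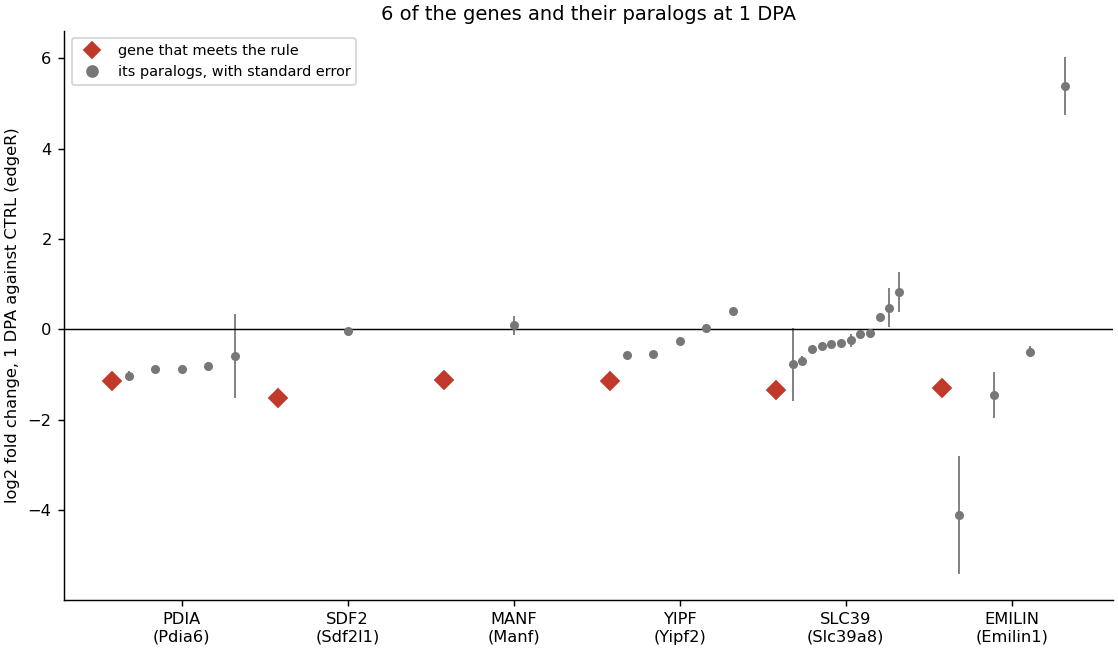
log2 fold change at 1 DPA against CTRL (y axis, edgeR) of 6 of the genes (red diamonds) and their tested paralogs (grey points with standard errors, sorted within each family on the x axis). The disulfide isomerases lie together below 0, Sdf2 and Cdnf lie near 0 (-0.03 and 0.09), and Emilin3 lies far above 0 at 5.39.

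Summed markers of several cell types were lower at 1 DPA as well, but not of all. The sums of alpha, delta, PP, acinar and Schwann cell markers overlapped with CTRL. In that order, edgeR called 0 of 7, 0 of 5, 0 of 2, 0 of 11 and 1 of 8 of them lower. Alpha cell markers summed to 1.43% to 2.46% of counts at 1 DPA, against 2.03% to 2.63% in CTRL. Acinar cell markers spanned 0.534% to 4.64% at 1 DPA and 1.01% to 6.30% in CTRL. The 8 beta cell markers summed to 15.2%, 14.1% and 11.2% of counts at 1 DPA, against 18.2%, 17.2% and 20.1% in CTRL, and the groups did not overlap. edgeR called 6 of the 8 lower at 1 DPA, beside 22.4% of all genes, and 5 to 7 when single libraries were left out. It still called 2 of the 8 lower at 3 DPA and 3 at 5 DPA, with 0 higher, beside 2.37% and 2.67% of all genes lower. The 8 markers summed to 15.4% to 18.6% at 3 DPA and 15.9% to 20.9% at 5 DPA, and none was at 0. Divided by this sum, the highest 1 DPA library was at 0.691 of the lowest other for Sdf2l1, 0.660 for Slc39a8, 0.770 for Yipf2, 0.809 for Pdia6 and 0.873 for Manf. The genes were chosen for such a gap before the division, so these ratios are a description, and the part of beta cell number in the levels was not tested. A sum of CPM weighs its most abundant markers most. Single beta cell markers ran from -1.03 (Slc2a2) to 0.07 (Mafa) on the log2 scale at 1 DPA, and no division by single markers was made. The 12 endothelial markers summed to 0.0815% to 0.0861% of counts at 1 DPA, against 0.0986% to 0.125% in CTRL, and to 0.105% to 0.116% at 3 DPA and 0.118% to 0.142% at 5 DPA, with none at 0 in a whole group. Every 1 DPA library was below every other library, and edgeR called 8 of the 12 lower at 1 DPA (6 to 12 with single libraries left out), beside 22.4% of all genes. The 8 duct cell markers summed to 0.0287% to 0.0295% at 1 DPA and 0.0338% to 0.0413% in CTRL. They were at 0.0418% to 0.0535% at 3 DPA and 0.0412% to 0.0528% at 5 DPA. edgeR called 4 of these 8 lower at 1 DPA and 0 higher. Of the 4, Sox9 and Onecut2 lost the call without CTRL replicate 1. Of the mitochondrial genome transcripts, 13 of 13 tested were called lower at 1 DPA by edgeR (median log2 fold change -0.69), beside 22.4% of all genes. The same 13 were called lower at 1 DPA by DESeq2 and with any single library left out. They were not low at 1 DPA only. edgeR called 3 of the 13 lower at 3 DPA and 10 at 5 DPA, with 0 higher (medians -0.27 and -0.37). Over all genes 2.37% and 2.67% were called lower at those times. The part of endothelial cells, duct cells or mitochondrial transcripts in the levels of the 8 genes was not tested.

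Emilin1 behaved otherwise. The 13 stromal and pericyte markers summed to 0.0875%, 0.0990% and 0.114% of counts at 1 DPA, against 0.274%, 0.197% and 0.0871% in CTRL, so CTRL replicate 3 was as low as the 1 DPA libraries. edgeR called 4 of the 13 lower at 1 DPA (30.8%, beside 22.4% of all genes) and DESeq2 8. That count was 0 without CTRL replicate 1 and 13 without CTRL replicate 3. They were at 0.182% to 0.260% at 3 DPA and 0.367% to 0.630% at 5 DPA, with none of the 13 at 0. Divided by this sum, Emilin1 was at 4.91%, 5.23% and 4.07% at 1 DPA and at 4.87%, 5.75% and 10.5% in CTRL. It was at 3.90%, 4.97% and 3.65% at 3 DPA and 2.60%, 3.47% and 3.32% at 5 DPA, so the 1 DPA libraries were within the range of the others. Both denominators were chosen after the data were seen, and their part in the levels was not tested further.

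**Figure D5:**
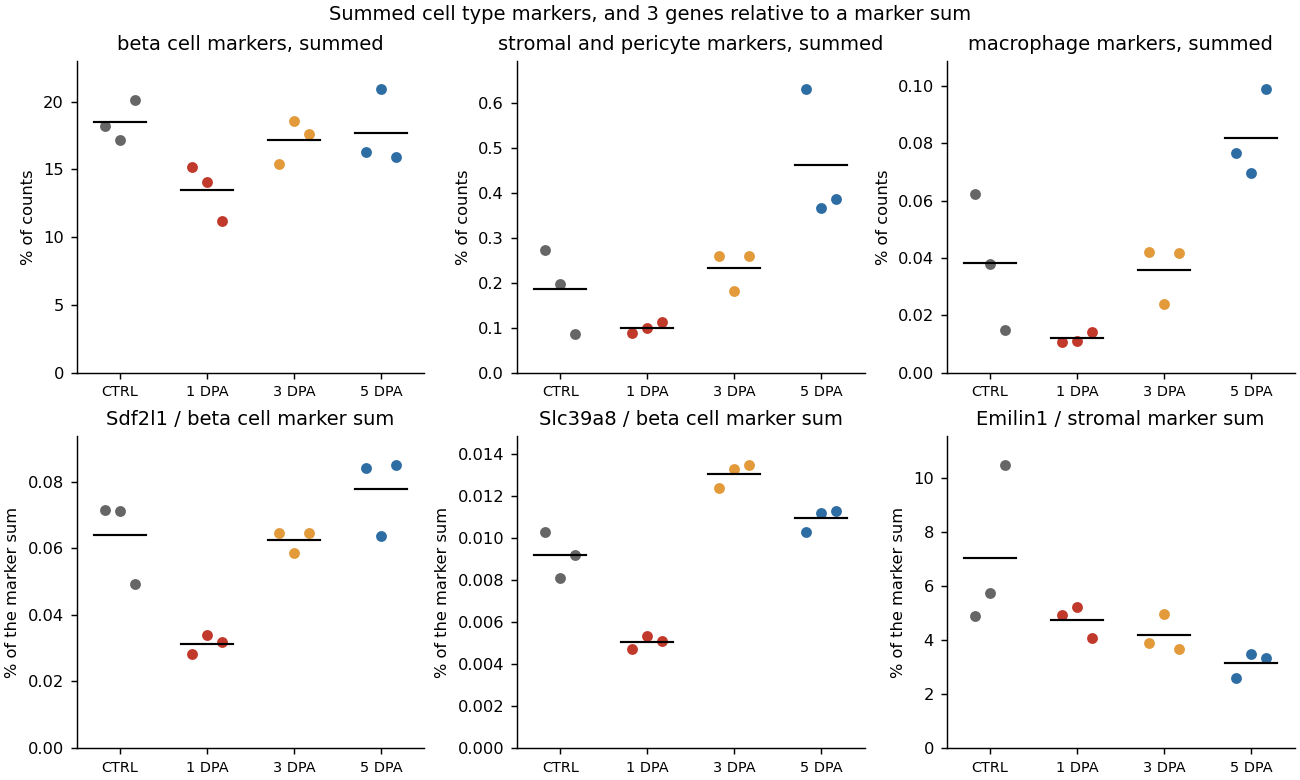
Upper row: summed beta cell, stromal and pericyte, and macrophage markers as a percentage of counts (y axes from 0) in CTRL, 1, 3 and 5 DPA libraries (x axes). Lower row: Sdf2l1 and Slc39a8 as a percentage of the beta cell marker sum, and Emilin1 of the stromal sum; points are libraries and lines group means. Sdf2l1 and Slc39a8 were chosen for low values at 1 DPA and reach at most 0.0340% and 0.00534% there, while Emilin1 at 1 DPA (4.07% to 5.23%) lies within the other libraries.

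The genomic features of the 8 genes were as follows, beside those of genes of at least 5 CPM in CTRL. All were protein coding, as were 98.5% of those genes. Their median gene span was 23593 bases, beside 25489 bases, their median transcript GC content 52.8%, beside 49.9%, and their median longest transcript 2211 bases, beside 3581 bases. Yipf2 and Manf share chromosome 9, Slc39a8 and Clca1 share chromosome 3, and the other 4 lie on a chromosome each.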

How the data were processed

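Islet RNA was purified with an RNeasy Mini kit and made into libraries with a stranded QIAseq mRNA kit, per the labels' protocols. The authors deposited raw gene counts and TPM values of the 12 libraries in a single table, per the file headers. Reads were placed on mm10, per the submitters' processing notes. Any use of strand, the aligner, the counting tool and the annotation release were not given in the sources used here. The 12 count columns and 12 TPM columns served here, and 24 other per-sample columns were not used. Counts gave the CPM values and all tests, and TPM served only to compare levels between genes.

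Libraries were grouped by their labels. The 8 genes, the gene lists and the marker lists were chosen with earlier results of these data known, and the gene families after the names of the 8 were known. Counts were tested with edgeR 4.0.16 in R 4.3.3 (filterByExpr with a minimum count of 10, TMM scaling, robust quasi-likelihood fit over all 12 libraries, Benjamini-Hochberg over 17294 genes), with DESeq2 1.42.0 as an alternative. Standard errors of edgeR's log2 fold changes come from its F statistic. The 95% intervals apply a normal approximation to them and are somewhat too narrow. The fit was tested on simulated counts that held changes of known size. No pair of libraries of a group agreed within sampling noise (chi-square per degree of freedom of 47.2 to 229 over the 12 pairs). The labels do not pair libraries by replicate number. Between 3 and 5 DPA libraries of equal number deviated together, with correlations of 0.156, 0.187 and 0.326 around their group means, and no other pair of groups met this. Between CTRL and 5 DPA these correlations were -0.109, -0.108 and -0.465, and libraries of unlike number were not compared. A pairing is therefore not established, and the replicate block is given as an alternative setting only. Floors of 3 counts cover counting error only.

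Of genes outside the set, the rule named per list the 2 called genes of smallest p at 1 DPA against CTRL, and the 3 genes just outside the ratio limit. Of the lists held for islets, the 3 closest to the genes' compartments (ER folding, integrated stress response, Golgi glycosylation) and the mitochondrial transcripts are described. Counts of the interferon, G1/S, heparan and chondroitin sulfate and ribosome biogenesis lists are given beside ER folding. They were picked after their values were seen. Other settings were DESeq2 in place of edgeR, RLE scaling, a scaling that leaves the 50 most abundant genes out of the totals, all genes with a count, a fit on the compared groups alone, the replicate block, each library left out in turn, and other limits of the rule. A further minimum of 1 CPM, the marker denominators and the ER stress element were chosen after seeing the data. Coordinates come from GENCODE M21 (mm10) and promoters from RefSeq (GRCm38.p6), where 6 of the 8 genes matched. Reads of genes with near-identical copies or overlaps may have been split by the authors' counting. Figures were drawn with matplotlib 3.10.9.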

Additional observations from a re-analysis of the deposited data

How the results depend on the processing

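How many genes met the rule depended on its limits and on single libraries. A ratio limit of 0.5 left 3 genes and one of 0.7 took 92, and CPM without the 50 most abundant genes gave 26. Leaving out each library in turn gave 7 to 140 genes, the most without CTRL replicate 3. A mean CTRL CPM of at least 2 gave 10 genes and of at least 10 gave 8. TMM-scaled CPM also gave 8 but not Pdia6, and a further minimum of 1 CPM in every other library left 6, without Marco and Clca1.

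No gene of the set was called at 5 DPA against CTRL under any setting run. At 3 DPA against CTRL leaving out single libraries gave 0 to 1 calls (Emilin1 or Yipf2), and no other setting gave any. At 5 DPA against 3 DPA 1 gene, Emilin1, was called by DESeq2 (log2 fold change 0.52), with only those groups in the fit and with the replicate block (0.50, adjusted p = 0.0491 in edgeR), and leaving out single libraries gave 0 to 1 calls. The block changed no other call of the set. Some values near 0 changed sign, none of them called. At 5 DPA against CTRL Manf was at 0.021 without the 50 most abundant genes, at 0.0091 with no filter and at -0.08 to 0.039 without single libraries. Leaving out single libraries, Marco ran from -4.82 to 0.36, Pdia6 from -0.029 to 0.07, Sdf2l1 from -0.0007 to 0.17 and Slc39a8 from -0.07 to 0.22 in that comparison, and Marco from -0.73 to 6.21 at 5 DPA against 3 DPA. Among uncalled genes at 1 DPA against CTRL, Herpud1 was at -0.08 and Cdnf at -0.044 without the 50 most abundant genes. Without single libraries Herpud1 ran from -0.031 to 0.07, Ern1 from -0.20 to 0.043, Sdf2 from -0.14 to 0.018, Cdnf from -0.09 to 0.19 and Pdia2 from -1.49 to 0.08. Without the 50 most abundant genes edgeR also called Syvn1 (-0.31) and Slc39a14 (-0.20) lower.

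DESeq2 called 3 folding genes lower at 3 DPA, against 1 by edgeR, and 3 and 2 Golgi enzymes lower at 3 and 5 DPA, against 0 by edgeR. For the lists at 1 DPA, of the 20 folding genes outside the set 17 to 18 were called lower under every setting run. Of the stress response targets, 0 were lower with only the groups compared and 1 to 2 without single libraries. Of the Golgi enzymes, 0 were higher without the 50 most abundant genes and 0 to 2 without single libraries. That scaling moved the median change over all genes at 1 DPA against CTRL to -0.17 (log2), against -0.05 with TMM, and the calls to 4221 higher and 5498 lower, against 5045 and 3871. The cause of these shifts was not tested. Clca1 had counts in too few libraries for the fit, and the interval of Marco was too wide to place its later levels.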
